A study of Mus musculus with 32 samples.

Results

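The histone cluster genes were read on the arrays by every probe whose gene name begins with Hist and a digit, which gave 46 genes with 51 probes, out of 35715 gene names with 55681 mouse probes. A probe was kept if some group had it well above background in each of its 4 mice, and 49 histone probes for 44 genes were kept, against 39163 probes over the whole array. The probes of Hist3h2bb-ps and Hist1h1d were not kept, and Hist1h1c was not analysed here because no probe carries that name. The kept probes read 4 linker histone H1 genes, 13 H2A genes, 10 H2B genes, 8 H3 genes and 9 H4 genes. Of the 49 kept probes, 45 were well above background on all 32 arrays. The other 4 were the probes of Hist1h2ae, Hist1h2bp and Hist1h2bq and 1 of the probes of Hist2h4.

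The samples were whole lungs of newborn mice, wild-type C57Bl/6J per the study's methods, rinsed of blood with PBS before RNA isolation, in a hyperoxia model of bronchopulmonary dysplasia, the chronic lung disease of preterm infants. Pups breathed 21% O2 (normoxia) or 85% O2 (hyperoxia) and received either a scrambled antimiR, a control oligonucleotide, or antimiR-34a, which is directed against the microRNA miR-34a. Lungs were taken at post-natal day 5 (P5) or day 14 (P14), with 4 mice in each of the 8 groups. The study asked what oxygen and the antimiR do to lung gene expression at each age. No untreated pups were among the samples, so every group had received an oligonucleotide. For killing, the labels name pentobarbital at P5 and isoflurane at P14, while the study's methods name pentobarbital at both ages, so it is not known whether the agent differed with age. Each of the 4 slides held 1 age at 1 oxygen level, so oxygen or age and slide cannot be told apart. The scrambled and antimiR-34a arrays lay on different rows of the same slide, so antimiR and row cannot be told apart.

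Histones are the proteins around which DNA is wound. H2A, H2B, H3 and H4 form the core of the nucleosome, and H1 binds the DNA between nucleosomes. The clustered genes are mostly transcribed in S phase, when new DNA has to be packed, and most of their mRNAs lack a poly(A) tail and end in a conserved stem-loop that is bound by the protein Slbp. Variant histones such as H3f3b are made outside S phase from polyadenylated mRNAs. In the growing lung, histone mRNA is therefore best known as a companion of cell division. The labelling reaction used here starts from poly(A), so a histone level is the part of the mRNA that this reaction picked up, and was measured against the other RNAs of the same array.

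On the mm9 build, which the arrays' annotation uses, 40 of the 51 probes lay on chromosome 13, 7 on chromosome 3, 1 each on chromosomes 6 and 11, and 2 had no position. Of the histone probes, 5 covered the whole stem-loop at the end of the mRNA, a motif held by 7 of all mouse probes (0.0126%). They are shown because 3 of these genes, Hist1h3i, Hist2h2bb and Hist1h3a, had the largest differences between ages in normoxia and the largest change of the oxygen difference with age. The stretches below are the 3′ ends of the deposited 60-base probes, 5′ to 3′, with the 16 bases of the stem-loop in capitals.
Hist2h2bb: cccaaaaGGCTCTTTTCAGAGCCacttta
Hist1h3a: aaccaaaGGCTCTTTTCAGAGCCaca
Hist1h3g: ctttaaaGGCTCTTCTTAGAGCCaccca
Hist1h3i: aacaaaaGGCTCTTTTCAGAGCCccctc
Hist1h4m: aactaaaGGCCCTTTTCAGGGCCatccaa
The Hist1h3i probe lay at chr13:21874784-21874843 on the minus strand, the Hist2h2bb probe at chr3:96074056-96074115 on the plus strand and the Hist1h3a probe at chr13:23853756-23853815 on the minus strand (mm9).

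Many histone genes are near-identical copies, and a probe can catch several of them. The array's annotation tied 16 kept probes to more than 1 histone gene, 28 to 1 histone gene and 5 to no transcript matched in RefSeq, and 19 shared a run of 20 bases with a probe of another gene name. The following whole probes of 4 H2A genes, all ending at the stop codon, show how little separates them. They differed from each other at 5 to 8 of 60 bases, and capitals mark a base that is not the most common one at that position. At the 2 positions where the probes stand 2 against 2, the capital is the letter later in the alphabet.
Hist1h2af: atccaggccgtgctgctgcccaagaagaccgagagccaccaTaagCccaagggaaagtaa
Hist1h2ak: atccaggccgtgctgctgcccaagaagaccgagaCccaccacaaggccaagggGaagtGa
Hist1h2an: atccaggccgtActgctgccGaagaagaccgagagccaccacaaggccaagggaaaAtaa
Hist2h2aa2: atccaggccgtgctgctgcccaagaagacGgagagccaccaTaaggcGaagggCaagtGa
A value given for an H2A or H4 gene can therefore be uncertain as to the copy it came from. Among those whose probe is annotated to 1 histone gene and shares no such run are Hist1h2aa, Hist1h2ab, Hist2h2ab, Hist1h4h and Hist4h4. Also uncertain are the H2B genes Hist1h2bm and Hist1h2bq and the H3 genes Hist1h3d and Hist2h3b, whose probes are annotated to more than 1 histone gene. The probes of Hist2h2bb, Hist1h3i and Hist1h3a share a run of 20 bases with probes of 3, 2 and 2 other gene names, in each case 1 of them not a histone name. The probe named Hist2h2aa2 was placed at chr13:51298057-51298116, away from the other chromosome 13 probes, which lay between 21814057 and 24026527.

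The promoters of 40 member genes were found in RefSeq (GRCm38.p6), each from 250 bases before to 50 bases after the start, and were searched on both strands. The octamer ATTTGCAT, the site of the Oct factors, was in 27.5% of them against 1.74% of 32851 promoters. It was in 6 of 13 H2A and 5 of 8 H2B promoters and in none of the H1, H3 and H4 promoters. The letters TATAAA were in 60% against 13.6%, and CCAAT was in 85% against 37.4%. Below are the 100 bases before the start of 3 genes that the results turn on, with these motifs in capitals.
Hist2h2bb, chr3:96269600-96269699, plus strand: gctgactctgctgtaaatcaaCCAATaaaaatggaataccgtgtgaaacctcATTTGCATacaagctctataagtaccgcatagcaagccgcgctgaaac
Hist1h3i, chr13:21783398-21783497, minus strand: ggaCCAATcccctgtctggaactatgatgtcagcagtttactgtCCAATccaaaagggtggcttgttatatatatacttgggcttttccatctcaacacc
Hist1h1e, chr13:23622559-23622658, minus strand: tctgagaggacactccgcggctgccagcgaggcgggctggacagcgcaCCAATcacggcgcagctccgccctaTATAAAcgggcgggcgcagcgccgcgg

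Levels are log2 signals from which the 75th percentile of the array was subtracted, so that 0 is the level of a probe at that percentile and 1 unit is a doubling. A level says nothing about another probe's level. Differences were tested with limma over all kept probes, and a probe was called where its p-value adjusted over all of them by the Benjamini-Hochberg method was under 0.05. The mice carry no litter label, so p-values measure the spread between these 4 mice a group. The lung markers Sftpc, Scgb1a1, Ager and Pecam1 were all well above the 75th percentile in the P5 normoxia group, with mean levels of 8.48, 8.20, 3.84 and 1.45. Between 33616 and 40788 probes were well above background per array. At P14 the arrays had 39014 to 40788 in normoxia and 34617 to 36478 in hyperoxia. At P5 in 85% O2 they had 33616 to 34595 with antimiR-34a and 36079 to 36786 with scrambled antimiR. The part of these differences in the comparisons of those groups was not tested. In whole lung, fewer cells of a type and less RNA per cell cannot be told apart.

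Under scrambled antimiR at P5, histone cluster mRNA was lower in 85% O2 than in 21% O2 across all 5 classes. Of 49 histone probes 43 fell and none rose, where 26.4% of all probes fell and 17.5% rose. The median difference over the histone probes was -0.84 on the log2 scale, and over all probes -0.07. All of the 4 H1 probes and of the 14 H2A probes fell, as did 8 of 10 H2B, 6 of 8 H3 and 11 of 13 H4 probes. In 42 of the 43 probes that fell, the 4 hyperoxic and the 4 normoxic mice did not overlap, as in 80.9% of all the array's probes that fell. Over all probes tested, fallen or not, 23.4% had every hyperoxic mouse below every normoxic one. The exception was Hist1h1t, and the mice also stood apart in Hist1h2bg, which did not pass.

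Hist1h4m, an H4 gene, had the lowest difference. Its levels were -0.75, 0.20, -0.25 and 0.04 in the normoxic mice and -1.93, -1.99, -1.98 and -1.81 in the hyperoxic mice. Every hyperoxic mouse lay below every normoxic mouse, with a difference of -1.74 ± 0.16 (SE, limma adjusted p = 1.75e-06), or 3.34-fold. The probe is annotated to more than 1 H4 gene. The H2B gene Hist2h2bb stood at 2.77, 2.93, 2.74 and 2.70 in normoxia and at 1.44, 0.93, 1.20 and 1.31 in hyperoxia. The groups lay well apart, and the difference was -1.57 ± 0.12 (limma adjusted p = 3.69e-07). Hist1h3i, an H3 gene, stood at 0.95, 1.23, 1.07 and 1.01 in normoxia and at -0.23, -0.58, -0.33 and -0.16 in hyperoxia. It was lower in each hyperoxic mouse, by -1.39 ± 0.11 (limma adjusted p = 5.23e-07).

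Among the linker histones, Hist1h1a was at -0.82, -0.60, -0.80 and -0.75 in normoxia and at -2.04, -2.56, -2.32 and -1.83 in hyperoxia, again without overlap. Its difference was -1.44 ± 0.13 (limma adjusted p = 1.75e-06). Hist1h1b fell by 0.91 and Hist1h1t, known as the testis H1, by 0.69 on the log2 scale. Hist1h1e had the smallest fall among the 43 probes that fell, at -0.38 ± 0.07 (limma adjusted p = 0.000816). Its normoxic mice lay between 3.88 and 4.07 and its hyperoxic mice between 3.42 and 3.70, which is a narrow gap but no overlap.

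Hist1h2ae, an H2A gene, was well above background on all 4 normoxic arrays and on none of the 4 hyperoxic arrays. Over the alternatives given in the closing section its log2 difference ran from -1.65 to -0.34, so no fold is given. The probe was kept only through the normoxic mice, where it is high, so that it had to differ. It is counted among the 43 probes and the 14 H2A probes that fell, and nothing is read from its test. The smaller falls among the H2A and H2B genes were those of Hist1h2af (-0.58), Hist1h2be (-0.58), Hist1h2bc (-0.48) and Hist2h2aa2 (-0.45). Hist1h4i differed by -1.17 and Hist4h4, the H4 gene on chromosome 6, by -0.81, and both fell.

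The 6 probes that did not pass belonged to 6 genes. They were Hist2h2be at -0.05 ± 0.14, Hist1h3d at 0.05 ± 0.06, Hist2h3c2 at -0.28 ± 0.13, Hist1h2bg at -0.43 ± 0.21, Hist1h4h at -0.37 ± 0.15 and 1 of the 2 Hist2h4 probes at -0.11 ± 0.40. Hist2h2be stood at -1.77, -1.67, -1.84 and -1.99 in normoxia and at -2.19, -1.80, -1.60 and -1.87 in hyperoxia, so the mice of both groups were mixed. In the P5 hyperoxic scrambled group 1 mouse has no value for Hist1h3d, because its spot carried an outlier flag, and that fit rests on 3 mice there.

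Marker lists of other tissues also moved at P5 under scrambled antimiR. Of the tested markers, 6 of 8 heart muscle genes, 3 of 6 skeletal muscle genes and 3 of 7 red blood cell genes were lower in 85% O2, and 2 of 8 neutrophil markers, while 1 of 4 whole lung markers was higher. Their scores, the mean log2 level of a list minus each gene's mean over 32 mice, ran from -0.39 to 1.52 in normoxia and -1.58 to -0.13 in hyperoxia for heart muscle and from 0.72 to 1.41 and -0.48 to 0.77 for red blood cells, and their part in the histone result was not tested. Normoxic scrambled mouse 4 had a skeletal muscle score of 3.46 where the other 3 had -0.31 to 0.57. Without that mouse 43 histone probes were still called, all lower.

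**Figure D1:**
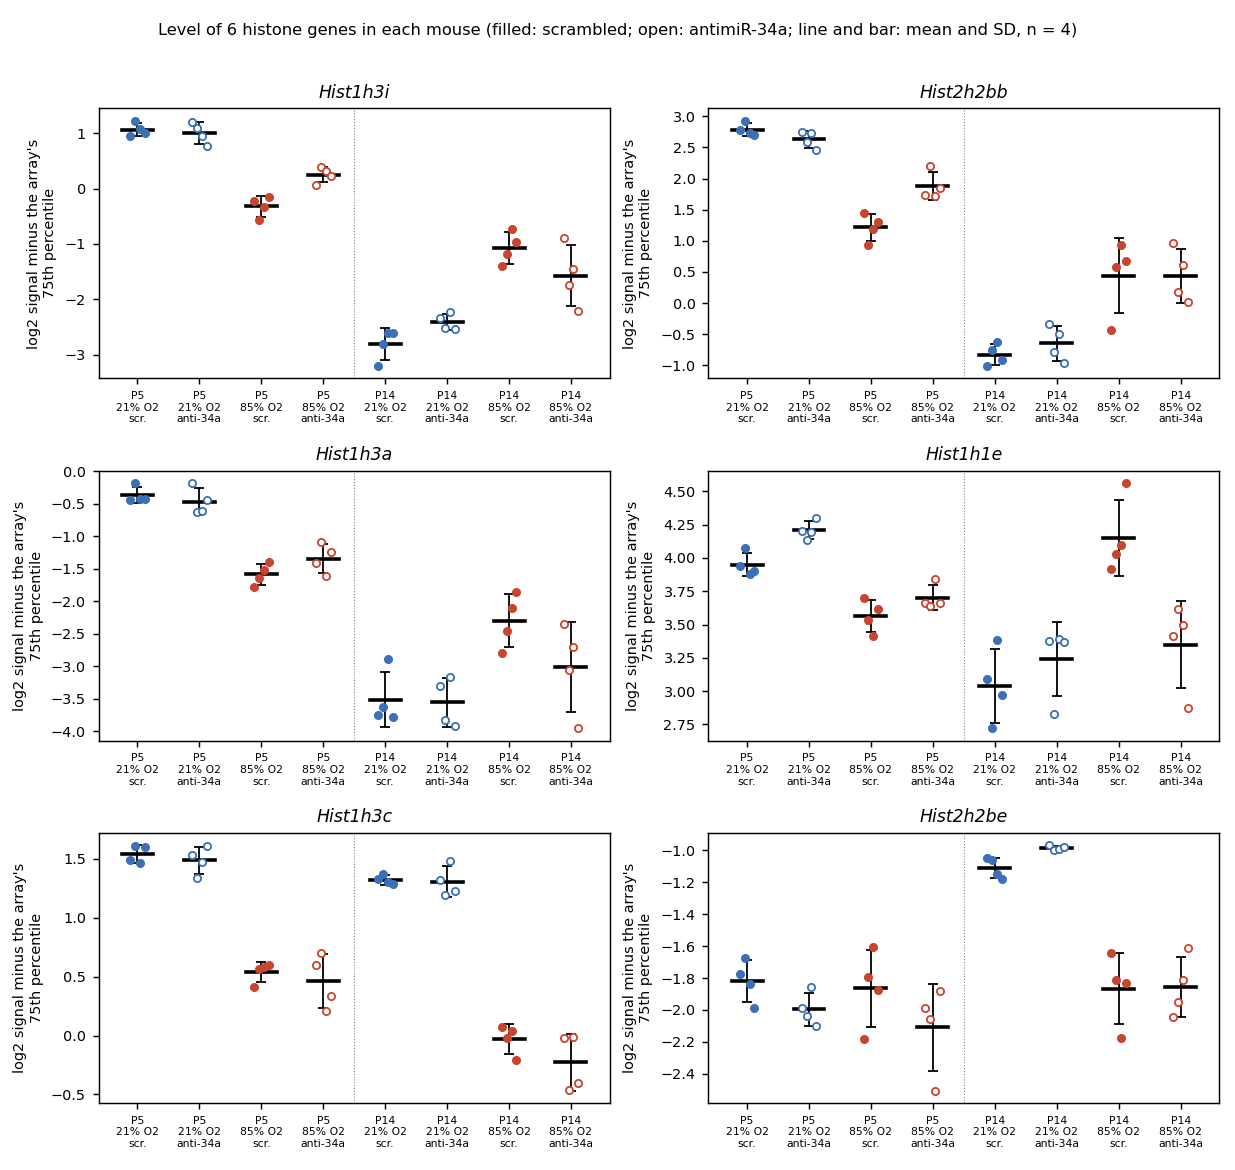
Level of 6 histone genes in each of the 32 mice (y axis: log2 signal minus the array's 75th percentile; x axis: the 8 groups by age, oxygen and antimiR; blue 21% O2, red 85% O2; line and bar are mean and SD of 4 mice). Hist1h3i under scrambled antimiR goes from 0.95 to 1.23 in normoxia to -0.58 to -0.16 in hyperoxia at P5, and the order of the oxygen groups is turned at P14.

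At P14 the same comparison under scrambled antimiR gave rises and falls side by side. Of 48 histone probes 18 rose and 6 fell, where 28.4% of all probes rose and 32.4% fell. The median histone difference was 0.19 and that of all probes -0.06. H2B and H3 held most of the rises, with 7 of 10 and 5 of 8 probes higher, while 3 of 13 H2A, 2 of 13 H4 and 1 of 4 H1 probes were higher. Hist1h2ae was not tested at P14, since it was not well above background on all arrays of any P14 group.

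Hist1h3i had the highest difference. Its P14 normoxic mice stood at -3.21, -2.81, -2.60 and -2.62 and its hyperoxic mice at -1.40, -1.19, -0.72 and -0.96, with no overlap. The rise was 1.74 ± 0.23 (limma adjusted p = 2.55e-05), or 3.35-fold. Hist2h2bb stood at -1.01, -0.75, -0.63 and -0.92 in normoxia and at -0.43, 0.58, 0.93 and 0.68 in hyperoxia. One hyperoxic mouse, replicate 1, lay near the normoxic ones without reaching them, and the rise was 1.27 ± 0.27 (limma adjusted p = 0.00108). Hist1h3a, at -3.75, -3.63, -2.90 and -3.79 in normoxia and -2.79, -2.46, -2.11 and -1.86 in hyperoxia, rose by 1.21 ± 0.33 (limma adjusted p = 0.00539), and its groups nearly touched.

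The linker histone Hist1h1e, which had the smallest fall at P5, was at 3.09, 2.72, 3.39 and 2.97 in P14 normoxia and at 3.92, 4.03, 4.09 and 4.56 in P14 hyperoxia. All hyperoxic mice were higher, and the rise was 1.11 ± 0.20 (limma adjusted p = 0.000268). The other H1 genes did not pass, with Hist1h1t at 0.51 ± 0.25, Hist1h1a at 0.09 ± 0.25 and Hist1h1b at -0.08 ± 0.24. Hist1h2bq rose by 1.02 ± 0.25, Hist1h2ba, known as the testis H2B, by 0.61 ± 0.08, Hist1h2bc by 0.46 ± 0.10 and Hist1h2bp by 0.28 ± 0.09. Hist1h3d rose by 0.89 ± 0.07, Hist2h3c2 by 0.47 ± 0.16 and Hist4h4 by 0.32 ± 0.11, though the Hist4h4 mice of both groups overlapped. The calls of Hist1h2bp and Hist4h4 did not pass under several of the alternatives given in the closing section, and that of Hist1h2bq did not pass under 1.

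The 6 probes that fell at P14 were 1 H2A, 2 H2B, 1 H3 and 2 H4 probes. Hist1h3c, an H3 gene, was at 1.33, 1.37, 1.30 and 1.28 in normoxia and at 0.07, -0.02, 0.04 and -0.21 in hyperoxia. The groups were more than 1 unit apart, and the fall of -1.35 ± 0.11 (limma adjusted p = 2.90e-07) came beside one of -1.0 ± 0.10 at P5. Hist2h2be, at -1.05, -1.06, -1.15 and -1.18 in normoxia and -1.65, -1.81, -2.17 and -1.83 in hyperoxia, fell by -0.76 ± 0.11 (limma adjusted p = 4.05e-05) with no overlap. Hist1h2aa, known as the testis H2A, fell by -0.74 ± 0.11 and Hist1h4h by -0.86 ± 0.32, the latter with overlapping mice. Hist1h2be had -0.25 ± 0.10 (limma adjusted p = 0.0415), and passed in 1 of the 8 fits that left out 1 of these mice.

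Of the 43 probes that fell with oxygen at P5, 15 rose at P14, 3 fell again, 24 did not pass and 1 was not tested. Of all 9500 probes that fell at P5, 9.19% rose at P14, 50.5% fell again, 38.1% did not pass and 2.21% were not tested. The probes of Hist1h4i differed in sign at P14: one was at -0.28 ± 0.25 and did not pass, and the other, which has no genome position, rose by 0.61 ± 0.13. The Hist2h4 probes also differed, one at 0.15 ± 0.13 without a call and the other lower, at -1.79 ± 0.48 (limma adjusted p = 0.0052). Of 8 lymphocyte and thymus markers 7 were lower in 85% O2 at P14, as were 3 of 6 red blood cell, 4 of 8 heart muscle, 2 of 6 skeletal muscle and 1 of 8 neutrophil markers. Higher were 1 red blood cell marker, 2 neutrophil markers and 1 of 4 whole lung markers. The lymphocyte score ran from 0.78 to 1.01 in normoxia and from -0.93 to -0.00 in hyperoxia, that of red blood cells from -0.97 to 0.42 and from -2.09 to -0.89, and their part in the histone differences was not tested.

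**Figure D2:**
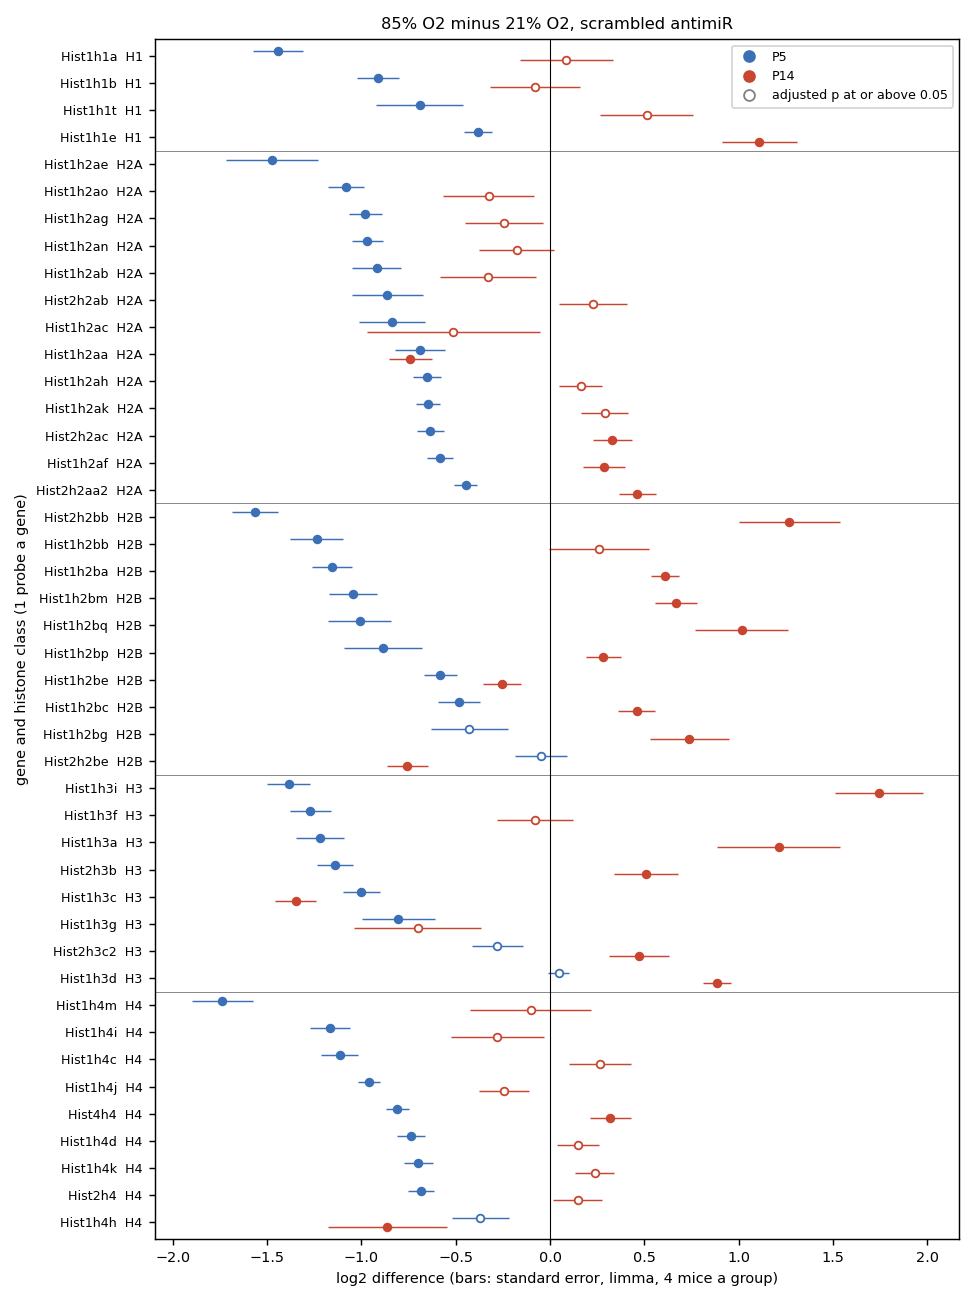
Difference between 85% O2 and 21% O2 under scrambled antimiR for each histone gene (x axis: log2 difference with its standard error; y axis: 44 genes by class; blue P5, red P14; open points did not pass). The P5 points lie left of 0 for all genes but Hist1h3d, while the P14 points lie on both sides, from -1.35 for Hist1h3c to 1.74 for Hist1h3i.

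The change of the oxygen difference with age was tested directly, as the P14 difference minus the P5 difference under scrambled antimiR. It was positive in 40 histone probes and negative in 2 of 49, where 23% of all probes were called positive and 17.9% negative. The 40 include Hist1h2ae, which was kept only through the P5 normoxic mice, so nothing is read from its test. The median over histone probes was 0.91 and over all probes 0.04. In the same test 6 of 8 lymphocyte markers were negative, 2 of 8 neutrophil markers positive and 1 negative, and 1 of 7 red blood cell markers positive. Of the 4 whole lung markers 1 was positive and 1 negative, and the part of these lists was not tested. Hist1h3i had 3.13 ± 0.27 (limma adjusted p = 5.39e-09), Hist2h2bb 2.83 ± 0.30 (1.61e-07), Hist1h3a 2.43 ± 0.36 (1.06e-05), Hist1h2bq 2.03 ± 0.31 (1.56e-05) and Hist1h2ba 1.77 ± 0.13 (4.04e-10). The 2 negative ones were Hist2h2be at -0.71 ± 0.18 (0.00233) and the dimmer Hist2h4 probe at -1.68 ± 0.65 (0.0405). The brighter Hist2h4 probe was called positive, at 0.83 ± 0.15 (limma adjusted p = 8.19e-05). Hist1h2bc at 0.94, Hist1h4i at 0.89 and Hist4h4 at 1.13 were all called positive.

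Between P5 and P14 in normal air, under scrambled antimiR, most histone mRNAs were lower at the later age. Of 49 probes 38 fell and 7 rose, where 23.5% of all probes fell and 27.8% rose, and the median histone difference was -0.77 against 0.04 for all probes. The 38 include Hist1h2ae, which was kept only through the P5 mice, where it is high, so nothing is read from its test. These normoxic mice are also the controls of the oxygen comparisons at P5 and P14, and of 8 lymphocyte markers all 8 were higher and of 7 red blood cell markers 5 lower at P14. Of 8 neutrophil markers 1 was higher and 2 lower, 1 of 8 heart muscle and 1 of 6 skeletal muscle markers were higher, and so were all 4 whole lung markers, and the part of these lists was not tested. Hist1h3i was 14.7-fold lower at P14 (-3.87 ± 0.19, limma adjusted p = 9.73e-14), Hist2h2bb 12.2-fold (-3.61 ± 0.22, 2.06e-12) and Hist1h3a 8.88-fold (-3.15 ± 0.25, 3.36e-10). Hist1h2bb fell by 2.64 and Hist1h4c by 2.35 on the log2 scale, Hist4h4 by 1.46 and Hist1h4i by 0.77. By class, 3 of 4 H1, 13 of 14 H2A, 6 of 10 H2B, 5 of 8 H3 and 11 of 13 H4 probes fell.

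The genes that rose with age were Hist2h3c2, at 1.42 ± 0.15, Hist1h4h at 1.19 ± 0.25, Hist1h2ac at 1.02 ± 0.36, Hist2h2be at 0.71 ± 0.12, Hist1h2be at 0.48 ± 0.09 and Hist1h2bc at 0.37 ± 0.10. Of the 2 Hist2h4 probes the dimmer one rose, at 2.45 ± 0.46, while the brighter one fell, at -0.41 ± 0.10 (limma adjusted p = 0.00192). Hist2h3c2 stood between -1.92 and -1.63 at P5 and between -0.56 and -0.06 at P14, without overlap. Hist1h2ac rested on 1 mouse, P14 scrambled normoxia replicate 4, whose level of -1.80 lay above the other 3 at -3.58 to -3.08. Without that mouse its difference was 0.65 (limma adjusted p = 0.128).

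Under antimiR-34a most histone probes were again lower in 85% O2 at P5. Of 49 probes 43 fell and 1 rose, where 29.5% of all probes fell and 17.2% rose, and the median was -0.60 against -0.09. Hist1h3g, an H3 gene, had the lowest difference, with normoxic mice at -1.60, -2.33, -1.83 and -1.80 and hyperoxic mice at -3.53, -3.42, -2.92 and -3.67. The gap between the groups was clear, and the fall was -1.50 ± 0.19 (limma adjusted p = 3.08e-05). Hist1h2bq had -1.37 ± 0.17, Hist1h1b -1.28 ± 0.11 and Hist1h2ab -1.20 ± 0.13. Hist1h2ae, detected in none of the hyperoxic mice, was again kept only through normoxic mice, so that no fold is given and nothing is read from its test. Hist2h3c2 rose by 0.43 ± 0.13 (limma adjusted p = 0.0184) with overlapping mice. Hist2h2be had -0.11 ± 0.14 and did not pass, while Hist1h2bc fell by 0.48, Hist1h4i by 0.61 and Hist4h4 by 0.54 on the log2 scale. Among the smaller falls without overlap were those of Hist2h4 (-0.49), Hist1h2af (-0.48), Hist1h4k (-0.48), Hist1h2aa (-0.48) and Hist2h2aa2 (-0.31), of which Hist1h2aa lost its call in 3 of 18 alternatives (adjusted p up to 0.0616). Of 7 red blood cell markers 4 were lower in 85% O2, with scores from 0.47 to 2.16 in normoxia and from -0.31 to 1.00 in hyperoxia, as were 1 of 8 heart muscle, 1 of 8 neutrophil and 1 of 6 skeletal muscle markers. Of 7 lymphocyte markers 2 were higher, as were 1 skeletal muscle and 1 whole lung marker, and the part of these markers in the histone result was not tested.

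At P14 under antimiR-34a 11 histone probes rose and 14 fell of 48, where 27.8% of all probes rose and 37.8% fell, and the median was -0.17 against -0.11. Hist1h4h fell by -1.68 ± 0.32 (limma adjusted p = 0.000355), Hist1h3c by -1.53 ± 0.11 (9.01e-08), Hist2h2be by -0.87 ± 0.11 (1.02e-05), Hist1h2aa by -0.75 ± 0.11 and Hist1h4j by -0.65 ± 0.13. Hist2h2bb rose by 1.09 ± 0.27 (limma adjusted p = 0.00284), Hist1h3i by 0.83 ± 0.23 (0.0065), Hist1h3d by 0.71 ± 0.07, Hist1h2ba by 0.60 ± 0.08, Hist1h2bm by 0.60 ± 0.11 and Hist1h2bc by 0.54 ± 0.10. The Hist1h3i call was lost in 1 of 19 alternatives. Hist1h1e stood at 3.38, 2.83, 3.39 and 3.37 in normoxia and at 3.41, 3.61, 3.50 and 2.87 in hyperoxia, with mixed mice and a difference of 0.11 ± 0.20. One Hist1h4i probe at 0.42 ± 0.25 and Hist4h4 at -0.17 ± 0.11 did not pass. The other Hist1h4i probe, which has no genome position, rose by 0.79 ± 0.13 (limma adjusted p = 0.000163). Of 8 lymphocyte markers 6 were lower in 85% O2, with scores from 0.74 to 1.58 in normoxia and from -0.99 to -0.20 in hyperoxia. Of 6 red blood cell markers 3 were lower and 1 higher, of 8 heart muscle markers 3 were lower, and of 8 neutrophil markers 2 were lower and 1 higher. Of 6 skeletal muscle markers 1 was higher. Their part in the histone differences was not tested.

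AntimiR-34a against scrambled antimiR asks whether blocking the microRNA alters these mRNAs at a given age and oxygen level. At P5 in 85% O2 most histone probes were above the scrambled mice by amounts that did not pass the test. None of 49 was called by limma after adjustment, where 0.0639% of all probes were called, and 21 had an unadjusted p under 0.05, as had 13% of all probes. The fitted difference was above 0 for 40 of 49 histone probes and for 18646 of all 35984 probes, with medians of 0.17 and 0.01. In 11 probes the 4 antimiR-34a mice lay above all 4 scrambled mice, which held for 2.86% of all probes.

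Hist2h2bb was at 1.74, 2.21, 1.71 and 1.84 with antimiR-34a, all above the scrambled values given earlier for 85% O2, and the difference was 0.66 ± 0.12 (limma adjusted p = 0.0693). Hist1h3i was at 0.06, 0.39, 0.33 and 0.24, again above every scrambled mouse, by 0.58 ± 0.11 (limma adjusted p = 0.0884). Hist1h4i was at -0.54, -0.29, -0.09 and -0.45 against -0.95, -0.85, -0.93 and -0.81, without overlap, and its difference was 0.54 ± 0.10 (limma adjusted p = 0.0811). The other Hist1h4i probe had 0.22 ± 0.15 (limma adjusted p = 0.542). Hist1h4m had 0.66 ± 0.16, Hist2h3c2 0.62 ± 0.13, Hist1h2bb 0.61 ± 0.14 and Hist4h4 0.24 ± 0.06, each without overlap. Hist1h2bc had 0.12 ± 0.11 and Hist2h2be -0.24 ± 0.14, and both overlapped. These mice are the hyperoxic groups of the oxygen comparisons, so the comparisons are not independent of one another.

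The call in this comparison hung on single mice and settings. Without scrambled replicate 1, Hist2h2bb passed (limma adjusted p = 0.0494). Without scrambled replicate 4, Hist1h1a, Hist1h3i and Hist2h3c2 passed, with Hist1h3i at 0.63 (limma adjusted p = 0.0446). With no filter on dim probes 8 histone probes passed.

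At P5 in normoxia no histone probe was called by limma, where 0.136% of all probes were, and 6 had an unadjusted p under 0.05, as had 17.4% of all probes. The median was -0.04 against 0.04 over all probes, with 8 histone probes whose groups did not overlap, 3 lower and 5 higher, where 15.2% of all probes had no overlap. Hist1h3g had the smallest p, at 0.82 ± 0.19 (limma adjusted p = 0.0918), with scrambled mice at -2.85, -2.45, -2.72 and -2.82 and the antimiR-34a mice all higher. Hist1h1e had 0.26 ± 0.07 (limma adjusted p = 0.134) and Hist1h4c -0.25 ± 0.10 (0.23). Hist1h2bc at 0.11, Hist2h2be at -0.18, Hist1h4i at -0.01 and Hist4h4 at -0.04 did not pass.

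At P14 in normoxia no probe of any kind was called (0% of all probes), and 1 histone probe had an unadjusted p under 0.05, as had 10.5% of all probes. The difference was above 0 for 42 of 48 histone probes and for 19600 of all 38458 probes, with medians of 0.15 and 0.004. In 2 of them, Hist1h3i at 0.41 ± 0.23 and Hist2h2be at 0.13 ± 0.11, all antimiR-34a mice lay above all scrambled mice, where this held for 1.6% of all probes. With 1 probe a gene, the smallest p-values were those of Hist1h2bq (0.52 ± 0.25, limma adjusted p = 0.479), Hist4h4 (0.22 ± 0.11, 0.48) and Hist1h2ac (0.88 ± 0.46, 0.49). The Hist1h2bq value was 0.22 without scrambled replicate 4, whose level of -6.08 lay below the other 3 at -5.13 to -4.74, and that of Hist4h4 was 0.14 without scrambled replicate 1. Hist1h2bc had -0.00 ± 0.10 and Hist1h4i 0.08 ± 0.25. The signal at the 75th percentile set scrambled replicate 4 (9.34 on the log2 scale) and antimiR-34a replicate 1 (10.2) apart from the other mice of their groups. Without both, 3 probes passed, those of Hist1h1t, Hist1h2ac and Hist1h4h, all higher with antimiR-34a.

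At P14 in 85% O2 the linker histone gene Hist1h1e was the only histone probe called. It was lower with antimiR-34a, at 3.41, 3.61, 3.50 and 2.87 against 3.92, 4.03, 4.09 and 4.56 with scrambled antimiR. Every antimiR-34a mouse lay below every scrambled mouse, and the difference was -0.80 ± 0.20 (limma adjusted p = 0.0463), where 1.54% of all probes were called lower. Groups did not overlap in 2 histone probes, both lower, Hist1h1e and 1 probe of Hist1h4d, against 6.47% of all probes in that direction. One Hist1h4i probe had 0.78 ± 0.25 (limma adjusted p = 0.116) and Hist1h3d -0.23 ± 0.07 (0.12), while the other Hist1h4i probe had 0.02 ± 0.13 (0.967). Hist1h2bc at 0.08, Hist2h2be at 0.01 and Hist4h4 at -0.26 did not pass, and the median over the 48 probes was -0.08, against -0.04 over all probes. The Hist1h1e call was lost in 16 of 19 alternatives, with adjusted p from 0.0329 to 0.336, among them leaving out any 1 mouse other than antimiR-34a replicate 2. Without scrambled replicate 3, the first of these Hist1h4i probes passed in its place, at 1.0 (limma adjusted p = 0.0427). Of 8 neutrophil markers 2, Camp at -1.69 and Ngp at -2.21, were lower with antimiR-34a here and the list's score ranged from -1.11 to -0.36 against -0.43 to 0.56, and its part in the Hist1h1e difference was not tested.

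**Figure D3:**
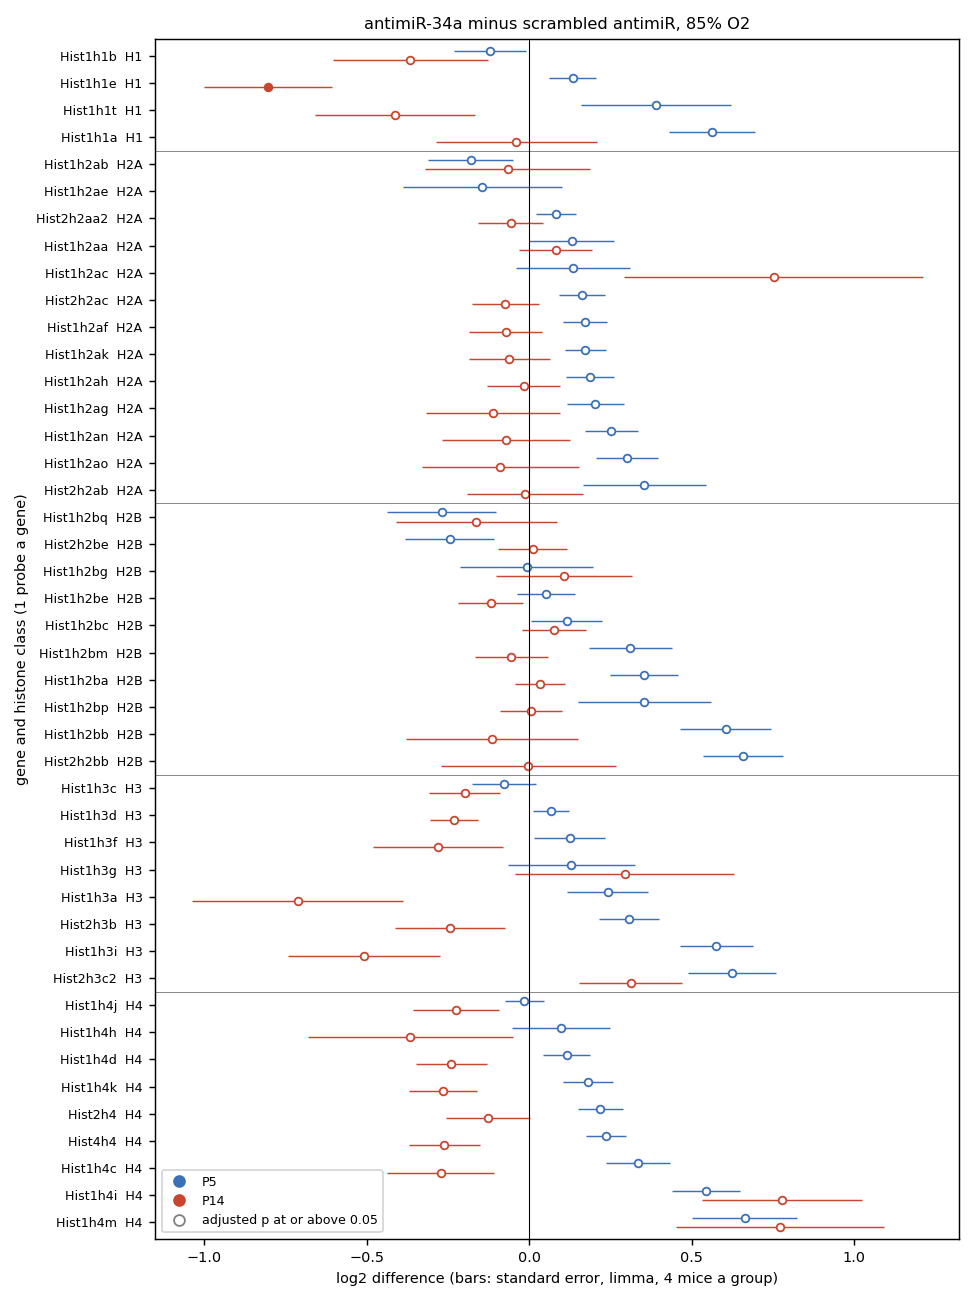
Difference between antimiR-34a and scrambled antimiR in 85% O2 for each histone gene (x axis: log2 difference with its standard error; y axis: genes by class; blue P5, red P14; the filled point passed). At P5 most genes lie right of 0, up to 0.66 for Hist1h4m and Hist2h2bb, without passing, and at P14 only Hist1h1e, at -0.80, passed.

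Whether the antimiR difference depended on oxygen was tested as an interaction at each age. At P5 none of 49 histone probes was called by limma, where 0.0556% of all probes were, and 16 had an unadjusted p under 0.05, as had 10.9% of all probes. The smallest p-values were those of Hist2h2bb (0.82, limma adjusted p = 0.137), Hist1h4c (0.59, 0.175) and Hist1h2bb (0.82, 0.189). At P14 none of 48 was called, where 0.0884% of all probes were, and 10 had an unadjusted p under 0.05, as had 15% of all probes. Hist1h1e had -1.0 ± 0.28 (limma adjusted p = 0.158), Hist4h4 -0.48 ± 0.15 (0.205) and Hist1h4k -0.46 ± 0.15 (0.21). With array weights 5 probes passed at P14, among them Hist1h1e (limma adjusted p = 0.0424), and 5 passed without scrambled replicate 4 and antimiR-34a replicate 1 of normoxia, not among them Hist1h1e. In the fit of all mice with equal weight the Hist1h1e call in hyperoxia is not shown to differ from normoxia.

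The probes with the whole stem-loop were also summarised apart from the others. Their median oxygen difference under scrambled antimiR was -1.39 at P5 with 5 of 5 lower, against -0.82 with 38 of 44 lower for the other histone probes. At P14 it was 1.21 with 3 of 5 higher, against 0.16 with 15 of 43 higher, and between ages in normoxia -3.15 with 4 of 5 lower, against -0.76 with 34 of 44 lower. Over all probes 26.4% fell at P5, 28.4% rose at P14 and 23.5% fell with age. For antimiR-34a in 85% O2 at P5 it was 0.58, against 0.15, and at P14 it was -0.00, against -0.09. Hist1h3i, Hist2h2bb and Hist1h3a, 3 of the 5 genes, had the highest differences at P14 and the lowest between ages, which was known when these probes were grouped, so the medians restate those values. They are a description, and no test was made. Hist1h3g, which also holds the stem-loop, was called lower at P5 (-0.80) and had -0.70 ± 0.34 at P14 and -0.29 ± 0.28 between ages, without a call.

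Genes of the cell cycle and of histone supply were set beside the members. All 20 S phase genes and all 14 mitosis genes were lower in 85% O2 at P5 under scrambled antimiR, with medians of -0.68 and -1.04. Cdc6, which loads the replicative helicase, had the lowest S phase value, -1.24, and Cdt1, its partner, the smallest fall, -0.33. Pcna, the sliding clamp of the polymerase, fell by 0.42 and Mki67, a marker of dividing cells, by 1.07. At P14 3 of 20 S phase genes rose, 1 fell, and the median was -0.09, with E2f1, a transcription factor of S phase entry, at 0.75. Of 14 mitosis genes 2 fell and none rose at P14, with Cdk1, the mitotic kinase, at -0.94. Both lists were lower throughout at P14 in normoxia than at P5, by medians of -1.25 and -1.92. Over all probes 26.4% fell with oxygen at P5, 28.4% rose and 32.4% fell at P14, and 23.5% fell with age.

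**Figure D4:**
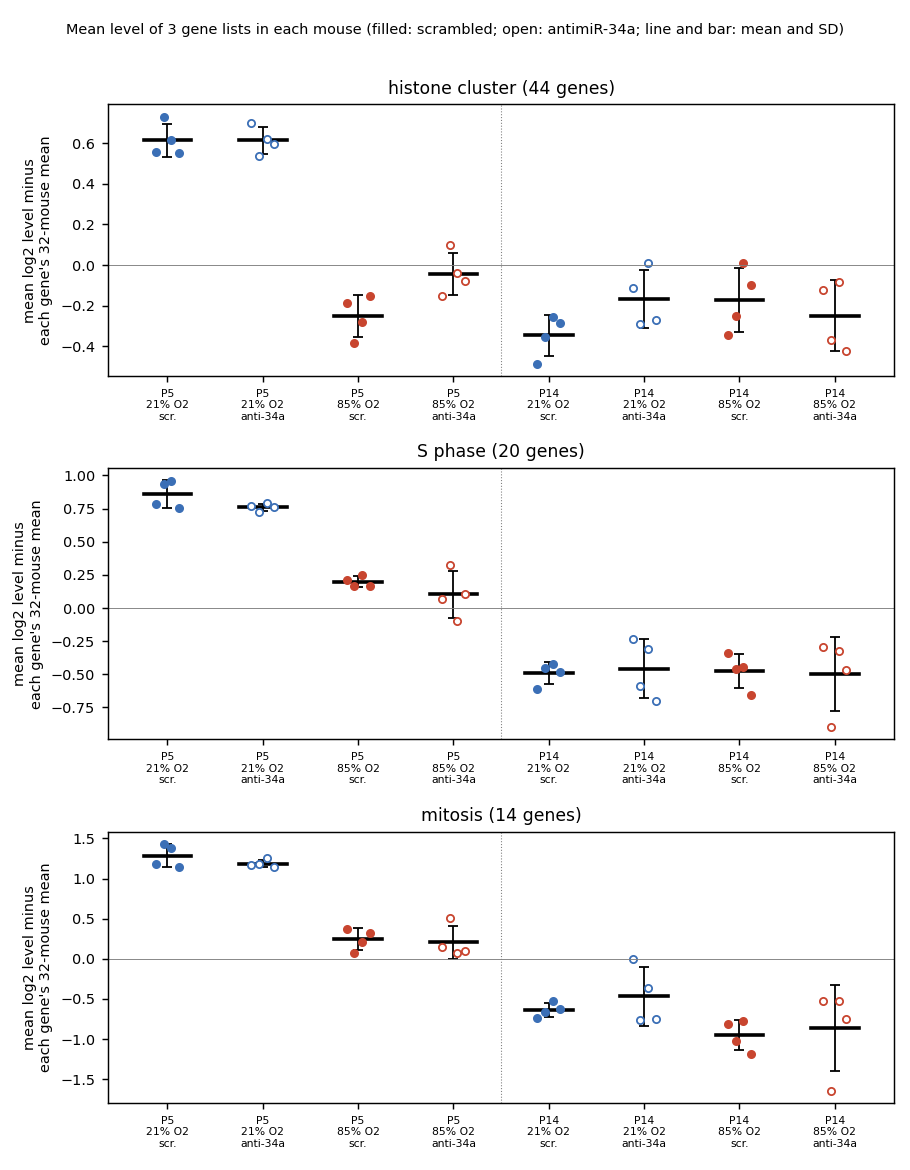
Mean level of the histone cluster genes, the S phase genes and the mitosis genes in each mouse (y axis: mean log2 level minus each gene's mean over 32 mice; x axis: the 8 groups; line and bar are mean and SD). All 3 lists are highest in the P5 normoxic mice, where the histone score is 0.54 to 0.73, and at P14 the histone scores of the oxygen groups overlap, while the mean mitosis score is lowest in 85% O2 with scrambled antimiR, at -0.95.

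The histone score, the mean level over 44 genes, was 0.61 in both P5 normoxic groups, and in P5 hyperoxia -0.25 with scrambled antimiR and -0.04 with antimiR-34a. At P14 it was -0.35 and -0.17 in normoxia and -0.17 and -0.25 in hyperoxia. Over the 32 mice it correlated with the S phase score at r = 0.866 and with the mitosis score at r = 0.862. After removal of the group means, r was 0.496 and 0.559. With the variant histone score r was 0.924, and 0.523 after that removal, with the chaperone score 0.801 and 0.187, and with the mRNA processing score 0.624 and 0.0381. These are descriptions over mice that share groups, arrays and scaling.

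Slbp, the stem-loop binding protein, had -0.17 ± 0.12 in 85% O2 at P5 and was not called, fell by 0.65 ± 0.14 at P14 (limma adjusted p = 0.000949) and was lower at P14 than at P5 in normoxia by 0.47. Npat, the activator of histone transcription, was not well above background on any array. Of 14 tested genes of histone mRNA processing 2 rose and 3 fell at P5 and 4 rose and 5 fell at P14. Casp8ap2, which takes part in histone gene transcription, was highest at P5 (0.45) and lowest at P14 (-1.40), and Ccne1, the cyclin of S phase entry, was lowest at P5 (-0.88). Of 14 chaperones, which carry histones to DNA, 3 rose and 5 fell at P5 and 5 rose and 3 fell at P14. Over all probes 17.5% rose and 26.4% fell at P5, and 28.4% rose and 32.4% fell at P14. Asf1b had -0.95 and Hira, the chaperone of the H3 variant, 0.56 at P5, and at P14 Ipo4, an import factor, had 1.33 and Asf1a -0.70.

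Of 11 variant histones, which are encoded outside the clusters, 7 fell and 1 rose in 85% O2 at P5. The gene that rose was H3f3b, a source of the replacement histone H3 (0.30 ± 0.07), and it also rose at P14 (0.80 ± 0.09, limma adjusted p = 4.74e-06). H1fx had the lowest P5 value, -0.90, and H2afx, the variant marked at DNA breaks, fell by 0.80 at P5 and had 0.19 ± 0.14 at P14. H1f0, the linker histone of resting cells, had -0.11 ± 0.26 at P5 and -0.20 ± 0.28 at P14 without a call, and rose with age in normoxia by 0.90 ± 0.28 (limma adjusted p = 0.00854). At P14 5 variants rose and 2 fell, with Cenpa, the centromere variant, lowest at -1.01. The shares of all probes to set beside these counts are those given for the chaperones.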

How the data were processed

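RNA of 32 lungs was labelled with Cy3 and hybridised to 1-colour Agilent 8x60K mouse arrays, read with Feature Extraction 10.7.3.1 per the file headers. The deposited processed intensity, background-subtracted by that software, was used. It was divided by the 75th percentile of its array and taken to log2, spots with outlier flags were left out, spots of a probe were averaged, and group means were fitted with limma 3.58.1 (R 4.3.3) over the 16 arrays of an age, or all 32 for comparisons between ages. The authors' value table holds log2 values, with the same median of 5.99 in every column, which correlated with these at 0.997 to 1. It was used as an alternative, its 51 histone probes being matched by probe name. Each gene is represented by its probe of highest mean level. Named are the 5 highest and lowest called members without overlap, or the 3 with the smallest p, with Hist1h2bc, Hist2h2be, Hist1h4i and Hist4h4 always. The members and lists were chosen with earlier results of these data known. The fit was tested on simulated data. The number of arrays limits the precision. Same-numbered mice of the P14 normoxic groups correlated at -0.31 to 0.526, so numbers were not taken to pair mice. Background correction, scaling, filter, replicate block, Welch's test, array weights and leaving out mice were tried as alternatives. No 2 arrays of a group correlated above 0.996.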

Additional observations from a re-analysis of the deposited data

Results flagged for a closer look

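The oxygen difference changed with age, by the test of that difference, in 13 named genes (log2, P14 minus P5): Hist1h3i at 3.13, Hist2h2bb at 2.83, Hist1h3a at 2.43, Hist1h2bq at 2.03, Hist1h2ba at 1.77, Hist4h4 at 1.13, Hist1h2bc at 0.94, Hist1h4i at 0.89, Hist1h2ao at 0.76, Hist2h3c2 at 0.75, Hist1h2ag at 0.74, Hist1h4j at 0.72 and Hist2h2be at -0.71. Hist1h2ao lost its call in 4 of 26 alternatives (adjusted p up to 0.071), 2 of them without P5 hyperoxic scrambled replicate 2 (0.70, limma adjusted p = 0.051) or P14 hyperoxic scrambled replicate 3 (0.70, 0.0511). Some single mice stood apart from the rest of their group. Hist1h1e was at 3.85 in P5 hyperoxic antimiR-34a replicate 3 where the others were at 3.64 to 3.66, and at 2.83 in P14 normoxic antimiR-34a replicate 2 where the others were at 3.37 to 3.39. Hist1h2bc was at 4.18 in P14 normoxic antimiR-34a replicate 1 where the others were at 3.87 to 3.90. Hist1h3a was at -0.18 in P5 normoxic scrambled replicate 2 where the others were at -0.44 to -0.42. The mitosis score was 0.51 in P5 hyperoxic antimiR-34a replicate 2 where the others had 0.07 to 0.14. Over all members 17 of 351 groups of 4 (4.84%) held such a mouse, and chance gives about 1 in 20. Explanations were not tested.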

How the results depend on the processing

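Counts of called histone probes stayed within 1.5 times in 222 alternatives and moved further in 34. For the medians the spread was the largest SD of the histone score in a group, 0.173, and 243 medians moved by less and 1 by more. A median smaller than that could change sign and still count as unmoved. This covers those of antimiR-34a in normoxia, of antimiR-34a at P14 in 85% O2 and of oxygen at P14 under antimiR-34a, so the count says nothing of their stability. Calling only differences of at least 2-fold left 17 probes for oxygen under scrambled antimiR at P5, 7 at P14, 7 and 4 under antimiR-34a, 21 for age, 21 for its interaction with oxygen and 0 for the antimiR at P14 in 85% O2. Leaving out 1 mouse gave 42 to 44, 20 to 25, 41 to 45, 19 to 28, 44 to 45 and 40 to 43 calls in the first 6 of these. For the antimiR the ranges were 0 to 0 at both ages in normoxia and for both interactions, 0 to 3 at P5 in 85% O2 and 0 to 2 at P14 in 85% O2, the 2 being Hist1h1e and Hist1h3d without antimiR-34a replicate 2. For P5 in 85% O2, normexp correction called 1 (Hist2h3c2), array weights 1 (Hist2h2bb) and no filter 8, and the cause was not tested. For P5 in normoxia normexp and array weights each called 1 (Hist1h3g). For P14 in normoxia array weights called 9 and leaving out scrambled replicate 4 and antimiR-34a replicate 1 called 3. The P14 interaction gave 5 calls under each of these, and the P5 interaction 1 under array weights. The share of all probes called under each alternative was not worked out, so the histone counts given for alternatives, here and above, have none beside them. For P14 in 85% O2, normexp, quantile scaling, the authors' table, no filter, the compared groups alone, Welch's test, array weights and leaving out those 2 arrays gave 0. The replicate block gave 44, 26, 44 and 29 calls for oxygen and 45 and 43 for age and its interaction, and in P14 hyperoxia called only the first Hist1h4i probe (adjusted p = 0.0266) in place of Hist1h1e (0.077). Normexp raised the median of all probes by 0.17 for oxygen at P14 under scrambled antimiR, and quantile scaling that under antimiR-34a by 0.20, where it called 15 histone probes higher and 17 lower. At P14, the calls of Hist1h2be, Hist1h2bp and Hist4h4 were lost under several alternatives and that of Hist1h2bq under Welch's test (0.0748), as was that of Hist1h3i under antimiR-34a (0.0838). Some sizes also moved. For oxygen at P14 under scrambled antimiR, Hist1h2aa ran from -0.81 to -0.38, Hist1h3a from 0.69 to 1.46 and Hist1h2bq from 0.57 to 1.52. At P5 under antimiR-34a Hist1h2bq ran from -1.48 to -0.60.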
